A study of Mus musculus with 15 samples.

Results

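Sorting nexins are proteins with a PX domain, which binds phosphoinositide lipids and brings the protein to endosomes. There they help to return membrane proteins to the cell surface or the Golgi, in part with the retromer complex, and some members also serve autophagy and contacts between organelles. p53, the transcription factor encoded by Trp53, binds DNA and regulates genes of arrest, death and metabolism after radiation damage. The 7 genes described here, Snx4, Snx11, Snx15, Snx19, Snx20, Snx29 and Snx30, were selected on the presence of a p53 chromatin immunoprecipitation sequencing (ChIP-seq) region, in the gene or up to 5 kb from it, in the region lists of liver, spleen and thymus alike. They are 7 of 30 coding genes named Snx plus a number, and 7 of 21887 coding genes in all. Their 8 regions are 8 of 4137 distinct regions.

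The libraries came from organs of wild-type (WT) mice. The series title names p53, and no label names the antibody. In each of liver, spleen and thymus, 2 were taken 3 h after 2 Gy of X-rays, 2 came from untreated mice, and 1 was input, chromatin sequenced without the antibody step. Age and sex are not given in the labels. The authors deposited 1 list of regions per organ, with a score per region that is their own and has no stated scale. The labels tie each list to all 5 libraries of its organ, while the lists' own names refer to irradiation and to IgG, and no library is labelled IgG. Which libraries went into a list, and what they were set against, is therefore not known, and no value here can be assigned to irradiated or to untreated mice. There were 3872 regions in the liver list, 2604 in the spleen list and 2405 in the thymus list, 1930 of them in all 3. With 1 list per organ there is no spread between replicates, no test was run, and read depth is unknown. A region list measures neither expression nor cell types, so organ markers could not be checked.

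Scores are given below beside their percentile within their own list, where 100 is the highest score and ties share a mean rank. Lists of different lengths do not give comparable ranks, so percentiles of different organs stand side by side and no change between organs is read from them. Spans of percentiles over the lists, and which list ranks a region highest or lowest, are given below as description and carry the same limit. Coordinates are those of build mm10, and genes are those of the RefSeq annotation of its assembly, GRCm38.p6. That annotation gives gene starts and ends here, without exons, so a region inside a gene could not be placed in an exon, an intron or an untranslated region.

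Of the 14 distinct regions at sorting nexin genes, 7 lay over a RefSeq start window, the 300 bases that begin 250 bases before an annotated transcription start. Only these can be shown as letters. The 5 printed are the region beside Snx15, held by all 3 lists, and the regions at the starts of Snx7, Snx12, Snx14 and Snx18, which the liver list alone holds. The region beside Snx15 was the only 1 of the 8 at the 7 genes over a start window. These letters therefore do not stand for the places of the other regions at the 7 genes. The sequences are from RefSeq (GRCm38.p6), on the minus strand, and show the part of the region inside the start window, 5′ to 3′. Capitals mark the p53 decamer, the motif that occurs in pairs in p53 response elements, at up to 1 mismatch on either strand (it reads alike on both).

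Sac3d1 start, beside Snx15 (chr19:6118537-6118650): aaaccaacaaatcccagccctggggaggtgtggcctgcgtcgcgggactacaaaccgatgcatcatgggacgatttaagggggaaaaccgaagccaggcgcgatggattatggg
Snx7 start (chr3:117869001-117869050): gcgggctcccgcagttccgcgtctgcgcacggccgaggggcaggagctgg
Snx18 start (chr13:113618601-113618650): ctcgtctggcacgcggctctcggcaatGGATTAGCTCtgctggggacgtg
Snx14 start (chr9:88438901-88439050): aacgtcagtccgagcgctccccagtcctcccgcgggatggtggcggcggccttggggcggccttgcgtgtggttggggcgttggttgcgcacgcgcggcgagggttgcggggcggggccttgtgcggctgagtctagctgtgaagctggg
Snx12 start (chrX:101222514-101222650): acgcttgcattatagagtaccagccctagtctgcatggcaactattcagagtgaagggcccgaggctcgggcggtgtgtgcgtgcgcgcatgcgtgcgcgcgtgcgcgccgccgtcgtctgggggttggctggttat

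Among these, Snx18 had 1 decamer at 1 mismatch, and the same stretch held a decamer at up to 1 mismatch in 14.8% of all 32851 start windows. The other 4 had none, against 34.4%, 16.1%, 43.2% and 40.1% of windows with at least 1 over the stretches shown for Sac3d1, Snx7, Snx14 and Snx12. No match says only that the decamer is absent from the stretch shown. The rest of each window was not searched, nor was any part of a region outside its window. The mismatch at Snx18 fell in the core of the decamer, its middle letters CWWG, where W is A or T. Counted alone, the core occurred 4 times at Snx14, 4 times at Snx12, 1 time beside Snx15 and 0 times at Snx7 and Snx18. Over the stretches shown for Snx14, Snx12 and Sac3d1, 86.6%, 84.1% and 78.8% of all windows held a core. A core alone is therefore common. G and C made up 57.0% of the letters beside Snx15, and 78.0% at Snx7, 72.0% at Snx14, 64.0% at Snx18 and 63.5% at Snx12, with medians between 54.0% and 56.0% over the same stretches of all windows. The other 7 regions at the 7 genes overlapped no start window.

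Of the 8 regions at the 7 genes, which were assigned only if in a gene or up to 5 kb from it, 6 lay inside Snx11, Snx19, Snx20 (a pair), Snx29 and Snx30, and 2 lay outside Snx4 and Snx15. A midpoint within 1 kb of an end of any annotated gene was found for 2 of the 7 regions held by all 3 lists, those at Snx15 and Snx20, beside 19.0% of the 1930 such regions in the series. Of the 1097 regions of all 3 lists that lay within 5 kb of a coding gene, 82.1% overlapped one, so a place inside a gene is common among them. A RefSeq start window was overlapped by 1 of the 7, beside 9.33% in the series. The 9.33% and the 19.0% are over all 1930 regions and were not limited to the 1097 near a coding gene, as the 7 were. Widths ran between 50 and 550 bp with a median of 150 bp, and the median of the 1930 regions was 250 bp.

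Snx4 and Snx30 encode partner proteins that pair a PX domain with a membrane-curving BAR domain, and Snx4 serves recycling from endosomes and autophagy. The region assigned to Snx4 (chromosome 16, 33247101 to 33247350) lay 4106 bp outside the gene, with its midpoint 4231 bp upstream of the annotated start. It scored 11.7 in the liver list, 29.1 in the spleen list and 12.8 in the thymus list, at percentiles of 11.0, 89.0 and 32.2. It thus stood near the foot of the liver list and high in the spleen list, the widest span of percentiles among the 7 genes (78.0 points). Osbpl11, a gene of the oxysterol-binding protein family, was nearer at 3789 bp, and the pseudogene Gm52274 lay at 1592 bp, so the gene this region belongs to cannot be told.

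Snx30 held a region deep inside the gene (chromosome 4, 59850301 to 59850450), 44725 bp downstream of its annotated start. The scores were 22.9 in liver, 22.0 in spleen and 8.31 in thymus, at percentiles of 59.6, 58.4 and 8.75. Liver and spleen ranked it above their middle, and thymus ranked it low. No other gene lay within 5 kb, and the nearest other region was 224051 bp away.

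Snx19, a protein of endolysosome and endoplasmic reticulum membranes with PXA and PX domains, held the narrowest region of the 7 genes, at 50 bp (chromosome 9, 30455201 to 30455250). It lay 27896 bp downstream of the annotated start and 575051 bp from the nearest other region. It scored 15.6 in the liver list, 18.0 in the spleen list and 27.6 in the thymus list, at percentiles of 22.9, 42.2 and 95.4. The thymus value was the highest percentile that any of the 7 genes had in a list.

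Snx15 joins its PX domain to a MIT domain and acts in endosomal traffic. Its region (chromosome 19, 6118101 to 6118650) was the widest of the 8, at 550 bp, and lay 749 bp outside the gene. It scored 21.0 for liver, 23.2 for spleen and 18.5 for thymus, at percentiles of 49.9, 65.0 and 60.3, near the middle or somewhat above it in each. The region overlapped Sac3d1 and the start window of that gene, whose letters are shown above, and lay 2112 bp from Naaladl1. It is therefore nearer to Sac3d1 than to Snx15.

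Snx11, Snx20 and Snx29 have the PX domain without a BAR domain. Snx11, a small PX protein of endosomes, held a region 5780 bp downstream of its start (chromosome 11, 96771701 to 96771850). It scored 13.7 for liver, 13.8 for spleen and 11.6 for thymus, at percentiles of 16.9, 26.7 and 26.3. All 3 lists ranked it low, and its span of 9.75 points was the narrowest among the 7 genes.

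Snx29, which has a RUN domain beside its PX domain, is the longest of the 7 genes at 436235 bp. Its region (chromosome 16, 11552501 to 11552650) lay 229671 bp and 146927 bp downstream of the RefSeq starts listed for it and 206520 bp from the nearest gene end. Scores were 20.2 for liver, 15.7 for spleen and 17.3 for thymus, at percentiles of 45.8, 34.1 and 55.1, the middle part of each list.

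Snx20, which binds the selectin ligand PSGL-1 in leukocytes, is the shortest of the 7 genes at 9573 bp and the only one of them with more than 1 region. The upper region by coordinate (chromosome 8, 88635701 to 88635850) lay 358 bp inside the upper gene end and was in all 3 lists. Scores there were 13.0 for liver, 11.5 for spleen and 20.3 for thymus, at percentiles of 14.7, 19.0 and 68.5. The lower region (88630501 to 88630850) was in the spleen and thymus lists and not in the liver list. It scored 22.2 in spleen and 14.8 in thymus, at percentiles of 59.6 and 42.2. Within the spleen list the lower region thus stood above the upper one, and within the thymus list it stood below it.

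**Figure D1:**
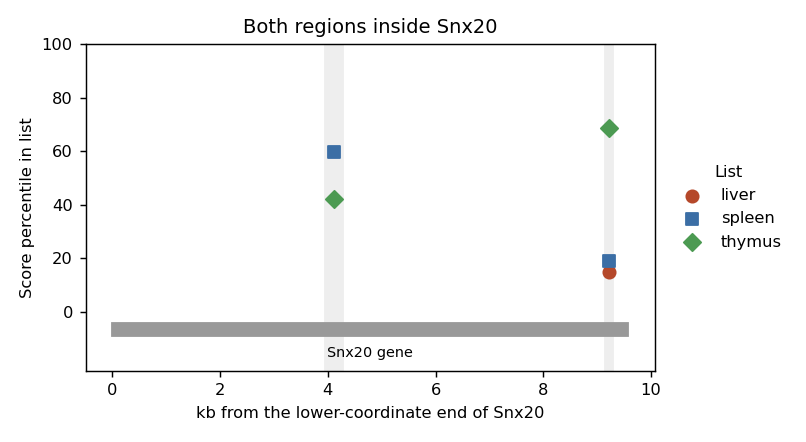
Score percentile of both regions inside Snx20 (vertical axis, within each organ's own list) against distance in kb from the lower-coordinate end of the gene (horizontal axis). Grey bands mark the regions, which lie 4851 bp apart; the lower one has no liver point because the liver list does not hold it.

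The order of the genes was not the same in each list. By the regions held by all 3 lists, Snx30 (59.6) and Snx15 (49.9) had the highest liver percentiles and Snx4 (11.0) and Snx20 (14.7) the lowest. In spleen Snx4 (89.0) and Snx15 (65.0) stood highest and Snx20 (19.0) and Snx11 (26.7) lowest. In thymus Snx19 (95.4) and Snx20 (68.5) stood highest and Snx30 (8.75) and Snx11 (26.3) lowest. With no replicates, it cannot be said which neighbours in these orders differ.

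**Figure D2:**
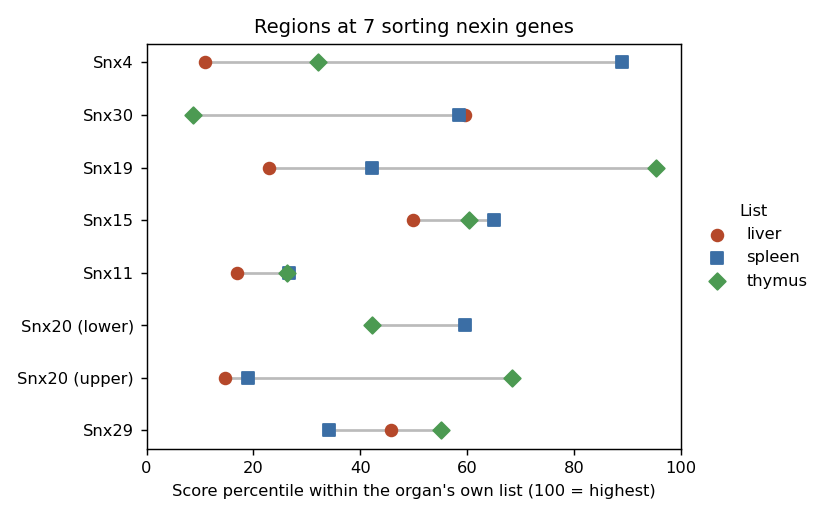
Score percentile within the organ's own list (horizontal axis) for the 8 regions at the 7 genes, with 1 point per list that holds the region and a grey line over the span. Snx4, Snx19, Snx20 (upper region) and Snx30 span over 50 points; Snx11 spans 9.75.

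The 7 regions held by all 3 lists ranked low in liver, at a median percentile of 22.9 (range 11.0 to 59.6), where the 1930 regions of the series held by all 3 had a median of 52.3. The medians were 42.2 against 58.0 in spleen, and 55.1 against 55.9 in thymus. The lowest of the 3 percentiles was that of liver for 5 of the 7, and for 44.1% of the 1930. The highest was that of liver for 1, of spleen for 3 and of thymus for 3, beside 34.1%, 32.8% and 33.0% in the series. When only the upper 50% of scores in each list was kept, 1 of the 7 genes kept a region in liver (Snx30), 4 in spleen and 4 in thymus, and none had a region held by all 3. Snx15 missed the liver cut narrowly, at a score of 21.006 against a list median of 21.028. Snx20 was kept in spleen only by its lower region, which the liver list does not hold. Of the 1189 coding genes with a region of all 3 lists, 61.6% kept one in liver, 55.1% in spleen, 51.7% in thymus and 26.6% in all 3. With all lists shortened to 2405 regions, 3 of the 7 genes kept a region in liver, beside 71.4% of the 1189, and 7 kept one in spleen, beside 94.9%. Thymus, the shortest list, lost none. Snx15, Snx29 and Snx30 still had a region of all 3 lists, beside 64.0% of the 1189. With 7 genes and 1 list per organ, nothing particular to these genes is read from the counts.

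The span between the highest and the lowest percentile exceeded 50 points for 4 of the 7 regions, those at Snx4 (78.0), Snx19 (72.4), Snx20 (53.7) and Snx30 (50.8). A span of at least 50 points was found for 31.0% of the 1930 regions, 599 in number. The spans of Snx29, Snx15 and Snx11 were 21.1, 15.0 and 9.75 points, below the series median of 35.3. The limit of 50 points was chosen after the values were seen. A span sets side by side places in lists of different lengths, so it is not a measure of change between organs.

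**Figure D3:**
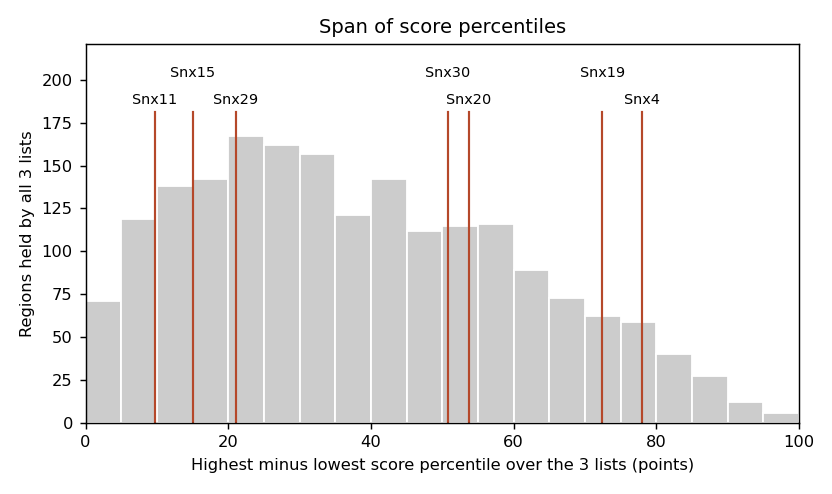
Histogram of the span (highest minus lowest score percentile over the 3 lists, in points) for the 1930 regions held by all 3 lists, in bins of 5 points, with red lines for the 7 genes. Snx11, Snx15 and Snx29 lie below the series median of 35.3, and Snx30, Snx20, Snx19 and Snx4 above it.

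For the gene pair with the highest mean percentiles, Snx15 and Snx19, the coding genes with the closest ranks were sought among 1189 with a region held by all 3 lists. Likeness was the largest difference over the 3 lists. Nearest to Snx15 were Slc4a8 (largest difference 2.12 points), Ccdc88c (6.90) and Actr3 (7.01). Nearest to Snx19 were Itga8 (7.28), Stard3nl (7.71) and Serac1 (8.18), all of them low or middling in liver and spleen and at 89.9 or above in thymus. With only 3 lists, likeness of this kind is weak.

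Of the 23 other Snx genes, 6 had a region in the liver list, 2 in the spleen list and 0 in the thymus list. The shares of all coding genes were 15.2% for the liver list, 8.11% for the spleen list, 7.17% for the thymus list and 5.43% for regions held by all 3. That each of the 7 genes has a region of all 3 lists, and that no other Snx gene has one, follows from how they were picked. The 7 genes had a median length of 40154 bp, the 23 others 49016 bp and all coding genes 17169 bp.

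The regions at the other Snx genes lay at gene starts. All 6 overlapped a RefSeq start window, beside 1 of the 8 regions at the 7 genes. No start window was given for Snx15 or Snx20, so regions there could not overlap one of their own gene. Each of the 6 other Snx genes with a region had at least 1 window. Among regions of the liver list alone, 63.3% in the series overlapped one, so 4 of 4 at Snx genes is read beside that share. Among regions of the liver and spleen lists alone the share was 46.8%, beside 2 of 2 at Snx genes. Neither share of the series was limited to regions within 5 kb of a coding gene, as those at Snx genes were. Snx7, a BAR-domain partner of Snx4, had a region of 50 bp with its midpoint 89 bp upstream of its start, at score 25.9 and a liver percentile of 73.4. Snx14, a relative of Snx19 at contacts of the endoplasmic reticulum, had one 46 bp upstream of its start at score 28.3 and a percentile of 85.5, the highest liver rank of any Snx gene. Snx18, an endocytic BAR protein with an SH3 domain, had one 61 bp upstream at 22.5 and 56.7. Snx12, a small PX protein, had one 12 bp upstream at 15.3 and 21.7. These 4 were in the liver list and in no other.

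The other 2 genes had regions in liver and spleen that overlapped the start window of a neighbour. Snx5 encodes a BAR protein that works with retromer. Its region (chromosome 2, 144270901 to 144270950) overlapped the upper end of Snx5 by coordinate, with its midpoint 23 bp beyond that end. The midpoint lay 353 bp upstream of the RefSeq start listed for Snx5. The same region overlapped the start window of Mgme1, which encodes a mitochondrial DNA exonuclease. It scored 19.4 in liver and 7.20 in spleen, at percentiles of 40.6 and 1.15. The region 4924 bp outside Snx22 (chromosome 9, 66060001 to 66060250) overlapped the start window of Ppib, the gene of cyclophilin B. It scored 16.3 in liver and 7.99 in spleen, at percentiles of 26.1 and 5.91. Both ranked near the foot of the spleen list.

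**Figure D4:**
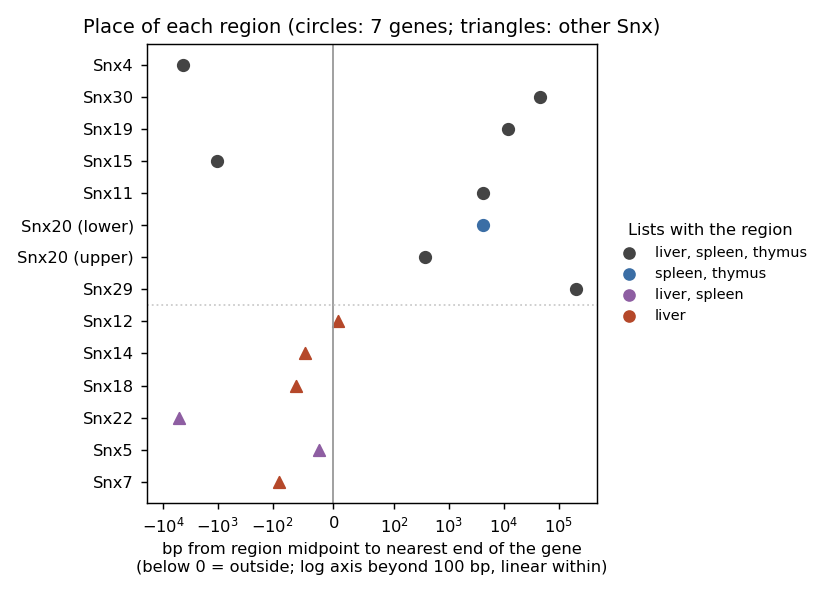
Distance in bp from the midpoint of each region to the nearest end of its Snx gene (horizontal axis, below 0 outside the gene, linear within 100 bp and logarithmic beyond), for the 8 regions at the 7 genes (circles) and the 6 at other Snx genes (triangles), coloured by the lists that hold them. All triangles but Snx22 lie within 100 bp of an end of their own Snx gene, and all circles lie 358 bp or more from an end of theirs.

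The 17 remaining Snx genes had no region in any list within 5 kb. They were Snx1, Snx2, Snx3, Snx6, Snx8, Snx9, Snx10, Snx13, Snx16, Snx17, Snx21, Snx24, Snx25, Snx27, Snx31, Snx32 and Snx33. Their nearest regions lay between 11160 bp (Snx25) and 1015222 bp (Snx10) away. Just inside the 5 kb limit stood Snx4 at 4106 bp and Snx22 at 4924 bp, and no Snx gene had its nearest region between 5 and 10 kb.

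Genes that work with sorting nexins were read the same way, in a list of 45 genes of retromer, retriever, commander, the WASH complex with actin capping protein, their regulators and their cargo. A region was found for 12 of the 45 in liver (26.7%), 7 in spleen (15.6%) and 8 in thymus (17.8%), beside the shares of coding genes above. The lengths of the 45 genes were not compared with those of all coding genes, so these shares take no account of length. A region held by all 3 lists was found for 7 (15.6%), beside 5.43% of all coding genes. Among coat genes these were the retromer subunit gene Vps26b and the commander genes Commd3, Commd10 and Ccdc93. Capzb, which encodes an actin capping subunit, and the endocytic receptor genes Sorl1 and Lrp1 were the others.

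Lrp1, a receptor of lipoproteins and many other ligands, held a pair of regions of all 3 lists. Percentiles were 82.4 for liver, 73.9 for spleen and 81.9 for thymus at the lower by coordinate and 84.5, 71.1 and 55.6 at the upper. The region at the end of Ccdc93 ranked at 94.5, 52.5 and 26.5, that at Commd3 at 57.5, 26.3 and 35.6, and that in Commd10 at 15.9, 54.4 and 79.1. The region in Sorl1 ranked at 42.6, 9.49 and 84.4 and that in Capzb at 27.7, 13.6 and 73.6. Another region, 451 bp from the one in Capzb and just outside that gene, was in the liver list alone, at a percentile of 33.9. The region 4752 bp from Vps26b, at 67.5, 28.7 and 33.1, overlapped the start windows of Acad8 and Thyn1. That of Commd3 also lay within 5 kb of Bmi1.

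A further 5 of these genes had regions in fewer lists. Tfrc, the transferrin receptor gene, ranked at 81.5 in liver, Commd5 at 44.4, Vps26c at 32.3 and Tbc1d5 at 21.5, each in the liver list alone. Capza2 ranked at 75.6 in liver and 13.2 in thymus. Start windows were overlapped by 6 of the 14 regions at the partner genes, beside 31.9% of all 4137 regions, which were not limited to regions near a coding gene.

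**Figure D5:**
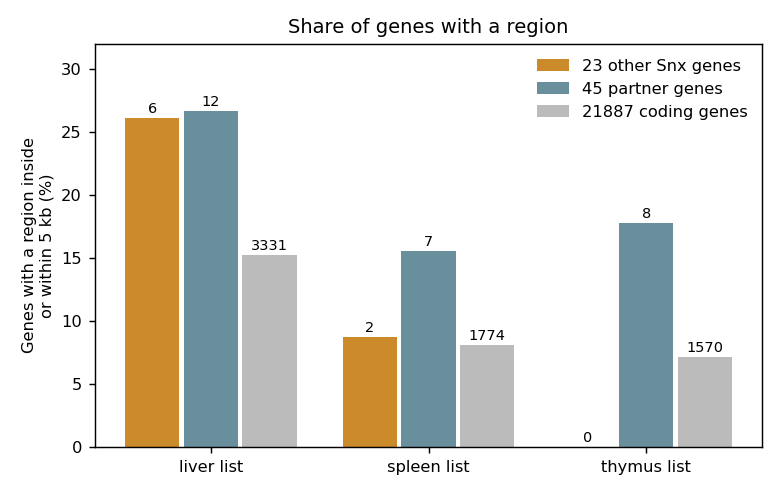
Percent of genes with a region inside or within 5 kb (vertical axis, bars start at 0) in each organ list, for the 23 other Snx genes, the 45 partner genes and all 21887 coding genes; the number above each bar is the count of genes. The 7 genes are left out because they were picked for having regions. Leaving them out lowers the bars of the other Snx genes, while the bars of all coding genes keep such genes.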

How the data were processed

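The authors deposited 1 headerless list of regions per organ, with positions and a score per region; what the score measures, the region caller, the aligner and any pooling of the 15 libraries are not given in any source used here. The genome build is mm10, per the submitters' processing notes. Region starts were converted to 1-based positions. A region was assigned to every gene (RefSeq, GRCm38.p6, 49943 genes on autosomes and sex chromosomes) that it overlapped or lay within 5 kb of, measured from edge to edge. Regions of different lists were the same when their chromosome, start and end were identical. Counts under the alternatives, and the shares of the 1189 genes with cut lists, used a shared length of at least 1 bp. The exception was where the overlap rule was itself the setting changed. Scores were used as rank percentiles within a list. Start windows were given for 21 of the 30 Snx genes, and for 5 of the 7 described, Snx15 and Snx20 being the others. All 45 partner genes matched by symbol. The 7 genes and the lists were chosen with earlier results of these data known. The text names the 7 genes with every region, other Snx genes, partner genes by list and best percentile, genes that share a region, and the 3 closest in rank for each of 2 genes. Gene assignment and ranking were tested on simulated data. Python 3.11.15 with pandas 2.3.3, numpy 2.4.6 and scipy 1.17.1 was used. Alternatives changed the window, the score threshold, list lengths, the overlap, the ranking and the distance to gene ends.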

Additional observations from a re-analysis of the deposited data

How the results depend on the processing

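No paired analysis was possible because each organ has 1 list and the replicate numbers belong to libraries that no value here separates; leaving out a replicate could not be done for the same reason. Of 93 comparisons of a count or median with its value under an alternative, 72 stayed within 1.5 times the count or inside a 95% binomial interval. That interval takes a percentile as a share of all regions in its list. It is a margin set by list length, and measures no spread between regions or replicates. Of 63 percentiles of single regions, 36 stayed inside an interval made the same way. The counts of the 7 genes were 6 per list at 1 kb, where Snx4 dropped out, and 5 inside genes, where Snx15 did too. In the upper 50% by score they were 1 in liver, 4 in spleen, 4 in thymus and 0 for regions of all 3 lists, other Snx genes numbered 3 in liver and 0 in spleen, and partner genes 6, 3 and 4, with 1 for all 3 lists. With lists of equal length, the 7 genes had 3 in liver and 3 for all 3 lists, other Snx genes 0 in spleen, and the median percentiles were 19.4 in liver (over the 3 regions left) and 37.4 in spleen. Ranked among regions of all 3 lists, the medians were 32.8 in spleen and 49.2 in thymus. Other Snx genes numbered 1 in spleen at 1 kb and by midpoint, and 3 in liver and 1 in spleen inside genes. Fewer regions or a smaller window lower these counts by construction. Some of the 72 could not have moved. Shortening left the thymus list, the shortest, as it was, a wider window could not raise 7 of 7, and a count of 0 could not fall. The 72 of 93 is therefore not a measure of stability. Read depth is unknown, so a gene without a region is not shown to lack p53.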
